A study of Rattus norvegicus with 48 samples.

Results

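The genes described here are 10 genes of DNA replication and cell cycle control, taken by symbol from count tables of 32883 genes: Mcm2, Mcm3, Mcm4, Mcm5, Mcm6, Mcm7, Wee1, Ccnd1, Cdkn1a and Mki67. The set was selected on gene symbol with measured values in view: Wee1 was chosen by its difference between young OVX and young sham posterior eyes, and the other 9 are further genes of replication and the cell cycle. All 10 were found in both tables and all 10 passed the filter on low counts in both tissues. RNA was sequenced from retina and posterior eye (called scleral in the name of the submitters' table) of 24 female Long-Evans rats, an outbred pigmented strain. The animals formed 4 groups of 6, namely aged rats (9 to 10 months old, called middle-aged by the submitters) after ovariectomy (OVX, surgical removal of the ovaries), aged rats after sham surgery, which leaves the ovaries in place, young rats (3 to 4 months old) after OVX, and young rats after sham surgery. Each animal gave 1 library of each tissue, and the time between surgery and dissection is not given in the sources used here.

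Mcm2 to Mcm7 encode the 6 subunits of the ring-shaped helicase that is loaded on replication origins before S phase and unwinds DNA at the fork. Ccnd1 encodes cyclin D1, which with its kinases releases E2F factors from the retinoblastoma protein, and E2F factors are known to drive transcription of the MCM genes. Cdkn1a encodes p21, a cyclin-dependent kinase inhibitor induced by p53, Wee1 encodes the kinase that holds CDK1 inactive until mitosis, and Mki67 encodes Ki-67, a protein of cycling cells. Neurons of the adult mammalian retina do not divide, whereas the basal layer of surface epithelia of the eye renews throughout life.

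The promoters of the genes whose levels moved together in the posterior eye are shown first, because the MCM genes share a sequence feature that their selection did not use. RefSeq promoters on build GRCr8 matched 7 of the 10 genes; Wee1, Mcm4 and Ccnd1 were not matched. Each sequence runs 5′ to 3′ on the gene's strand and is 150 bases long, ending at base 4 counted from the annotated start at 0. Capitals mark the E2F octamers TTTCCCGC, TTTCGCGC, TTTGCCGC and TTTGGCGC or their reverse complements in the MCM genes, and the cell cycle homology region core TTTGAA in Mki67.
Mcm2: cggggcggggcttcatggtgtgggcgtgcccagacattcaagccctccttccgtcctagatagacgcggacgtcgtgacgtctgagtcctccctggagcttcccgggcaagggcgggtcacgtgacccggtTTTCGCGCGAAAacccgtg
Mcm3: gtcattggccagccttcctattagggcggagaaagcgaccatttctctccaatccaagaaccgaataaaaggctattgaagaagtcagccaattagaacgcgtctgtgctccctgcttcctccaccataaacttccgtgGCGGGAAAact
Mcm5: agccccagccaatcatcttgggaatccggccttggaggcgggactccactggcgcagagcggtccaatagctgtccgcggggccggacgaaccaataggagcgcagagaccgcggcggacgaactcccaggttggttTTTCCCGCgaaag
Mcm6: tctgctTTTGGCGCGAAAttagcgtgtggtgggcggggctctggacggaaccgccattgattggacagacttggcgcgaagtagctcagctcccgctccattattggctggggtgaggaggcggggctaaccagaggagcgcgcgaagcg
Mcm7: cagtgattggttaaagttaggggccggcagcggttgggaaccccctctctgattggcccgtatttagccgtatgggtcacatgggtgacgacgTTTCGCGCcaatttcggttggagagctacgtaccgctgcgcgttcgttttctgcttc
Mki67: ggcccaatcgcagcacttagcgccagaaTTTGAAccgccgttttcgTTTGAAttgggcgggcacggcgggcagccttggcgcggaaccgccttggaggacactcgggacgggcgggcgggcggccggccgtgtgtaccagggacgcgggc
These windows lie at chr4:122918090-122918239 (minus strand) for Mcm2, chr9:30733742-30733891 (minus strand) for Mcm3, chr19:13488668-13488817 (plus strand) for Mcm5, chr13:42404348-42404497 (minus strand) for Mcm6, chr12:22163174-22163323 (minus strand) for Mcm7 and chr1:199952589-199952738 (minus strand) for Mki67.

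An E2F octamer on either strand was present in 5 of 5 MCM promoters searched from 250 bases before to 50 bases after the start, against 2.14% of all 33469 promoters (716 promoters). In Mcm2 and in Mcm6, octamers on the 2 strands overlap and form 1 capitalised run. The capitalised octamer began at base -14 in Mcm2, -6 in Mcm3, -8 in Mcm5 and -52 in Mcm7, where its last base is also the first base of a CCAAT box, and at -139 in Mcm6. Neither the Mki67 nor the Cdkn1a promoter held an octamer in this window. Mki67 held TTTGAA at -117 and -99, a hexamer present in 18.3% of all promoters, and the second copy shares its last base with a CCAAT box read on the other strand. The motifs were chosen with the expression values known, and a match describes letters, not binding.

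Posterior eye libraries held 11470945 to 22971367 counts each, and retina libraries 12916146 to 30737547. Levels are CPM, counts scaled to library size after TMM normalisation, which are not corrected for gene length, so levels are compared between samples and not between genes. The labelled tissues matched their markers, since 9 rod genes summed to 80533 to 97698 CPM in retina libraries and 8 fibroblast genes of the sclera, of which 6 passed the filter in the retina, summed to 4770 to 10375 CPM in posterior eye libraries and 54.9 to 142.8 CPM in retina libraries. The posterior eye libraries were a variable mixture: rod genes summed to 84.1 to 31687 CPM and 10 stratified surface epithelium genes (keratins and others) to 13961 to 45368 CPM. In the same libraries 7 skeletal muscle genes summed to 7820 to 35665 CPM. The retina libraries varied in lens RNA. There 9 lens genes summed to 3097 to 51756 CPM, against 44.4 to 2626 CPM in posterior eye libraries. The lens median was 25237 CPM in aged OVX, 8153 in aged sham, 30599 in young OVX and 32761 in young sham retinas. The spread between animals, as the common biological coefficient of variation, came to 33.4% for posterior eye and 12.0% for retina. In bulk tissue, fewer cells of a type and less RNA per cell cannot be told apart. Animal numbers run in order of group, and whether they follow the order of handling is not given in the sources used here.

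The posterior eye and the retina of the same animals were compared first, with all 48 libraries scaled together, so the CPM values of this comparison differ slightly from those given below, where each tissue was scaled on its own. All 10 genes were higher in the posterior eye (edgeR quasi-likelihood test over 48 libraries, mean of the 4 groups), beside 47.8% of all 17153 genes tested that were higher and 45.2% that were lower. The size differed among helicase subunits, although they form 1 complex. Mcm5 averaged 26.2 ± 6.62 CPM in posterior eyes and 2.39 ± 0.54 in retinas (SD, n = 24 each), a log2 fold change of 3.44 ± 0.10 (SE, adjusted p = 2.33e-31). Mcm3 averaged 25.98 ± 5.55 and 3.71 ± 0.59 CPM in posterior eye and retina (2.79 ± 0.08, adjusted p = 9.55e-32). Mcm6 averaged 33.4 ± 6.04 CPM in posterior eyes and 9.55 ± 0.94 in retinas, a 3.49-fold difference, and Mcm2 54.7 ± 9.71 and 21.5 ± 1.56 CPM, a 2.53-fold difference.

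Mcm4 and Mcm7 differed little between the tissues. Mcm4 averaged 34.7 ± 5.47 CPM in posterior eyes and 29.4 ± 2.31 in retinas, and Mcm7 48.7 ± 5.14 and 41.3 ± 2.30 CPM (SD, n = 24 each). Both had a log2 fold change of 0.24, with an SE of 0.05 for Mcm4 and 0.03 for Mcm7, and adjusted p-values of 6.53e-06 and 1.36e-08. Mcm4 was higher in the posterior eye of 21 of 24 animals and Mcm7 in 23 of 24, while the other 8 genes were higher in 24 of 24. For Mcm4, the young sham groups of both tissues did not differ beyond their spread, with 30.95 ± 4.98 CPM in posterior eyes and 30.3 ± 1.27 in retinas (SD, n = 6).

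Of the other cell cycle genes, Ccnd1, Mki67 and Cdkn1a had larger folds than any helicase subunit, and Wee1 lay near Mcm2. Ccnd1 averaged 348 ± 83.7 CPM in posterior eyes and 17.6 ± 4.62 in retinas, a 19.6-fold difference (adjusted p = 1.58e-32). Mki67 averaged 20.2 ± 5.62 and 1.58 ± 0.72 CPM in posterior eye and retina, a 13.1-fold difference (adjusted p = 2.79e-26), and Cdkn1a 36.8 ± 9.79 and 3.08 ± 1.13 CPM, a 12.0-fold difference (adjusted p = 1.24e-26). Wee1 averaged 50.2 ± 10.3 CPM in posterior eyes and 19.4 ± 1.85 in retinas, a 2.55-fold difference (adjusted p = 6.61e-27). These folds set tissues of different cell makeup side by side.

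Within the posterior eye, the MCM genes were highest in aged OVX animals. Mcm2 ran from 58.3 to 67.8 CPM (median 61.2) in aged OVX, from 46.4 to 60.8 (51.8) in aged sham, from 37.6 to 57.9 (48.9) in young OVX and from 31.995 to 55.9 (46.4) in young sham animals. Every aged OVX library lay above every young OVX library, while the aged OVX and aged sham ranges overlapped. Mcm5 ran from 25.8 to 35.03 CPM (median 30.98) in aged OVX, from 21.1 to 32.5 (26.4) in aged sham, from 15.3 to 29.1 (22.4) in young OVX and from 13.3 to 27.1 (20.8) in young sham. Its groups all overlapped.

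**Figure D1:**
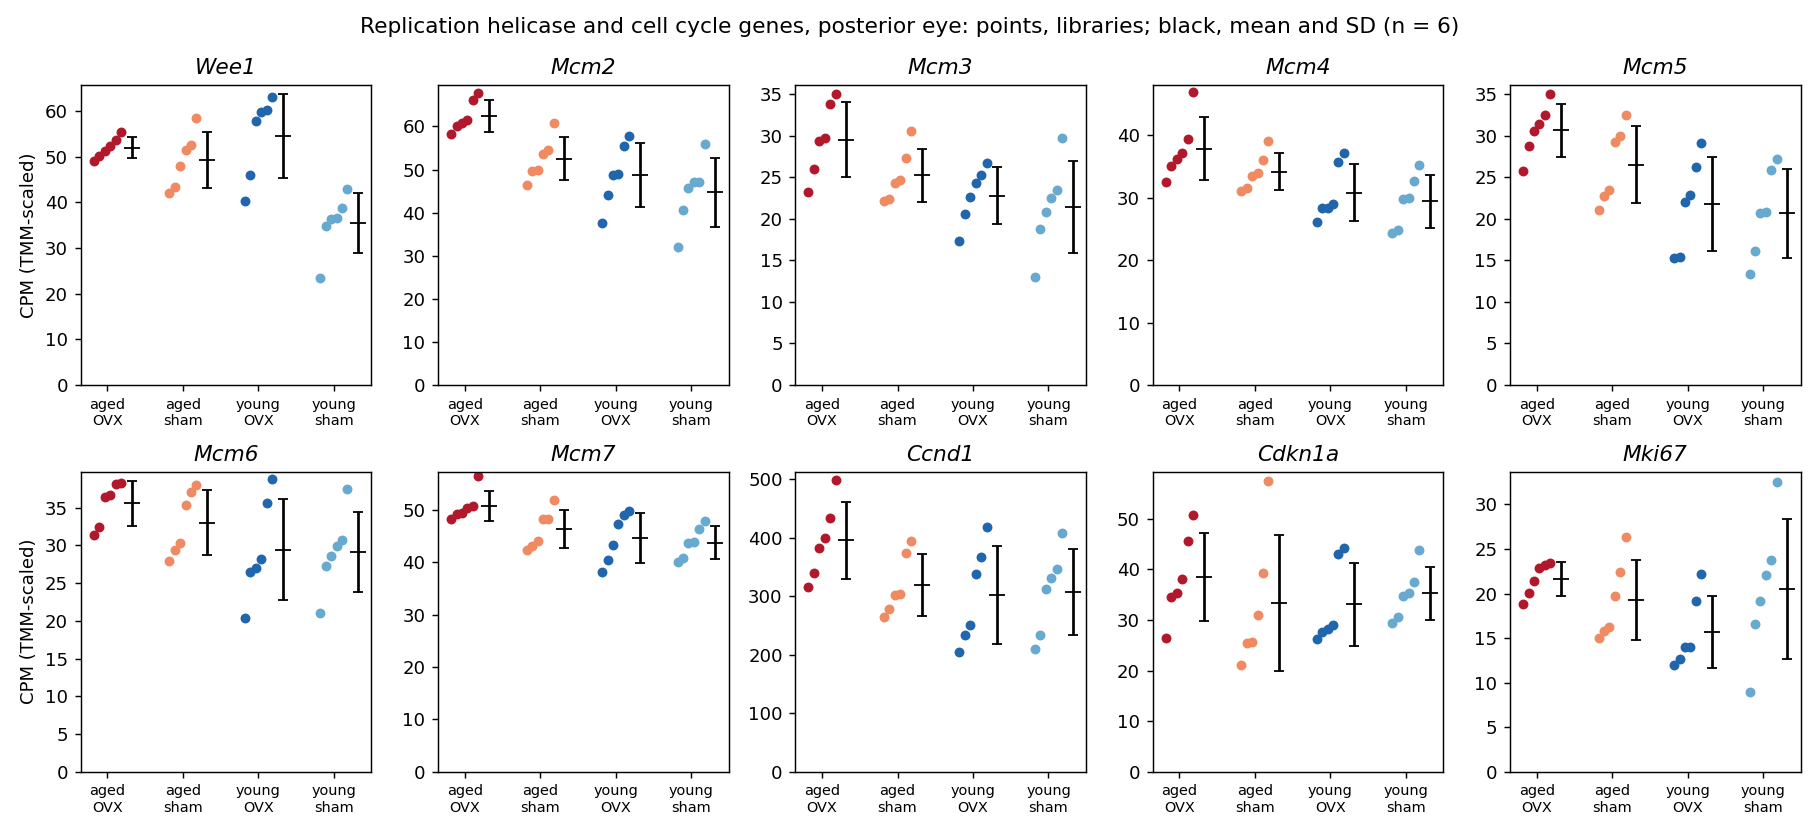
Level of each gene in the posterior eye (vertical axes, TMM-scaled CPM, starting at 0) by group, with 1 point per library and the mean and SD in black (n = 6). The 6 aged OVX libraries of Mcm2 sit between 58.3 and 67.8 CPM, above all 6 young OVX libraries, and young sham Wee1 sits between 23.4 and 42.9 CPM, lower than most libraries of the other groups.

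Age was compared in OVX animals (aged OVX against young OVX). At an adjusted p under 0.05, edgeR's test called 0 of 16401 genes (0%), with 1663 at an unadjusted p under 0.05. DESeq2 called 65 genes and limma-voom 1, none of them among the 9 genes other than Wee1. Wee1 is left aside in these counts, because the comparison uses young posterior eyes. At an unadjusted p under 0.05, 7 of the other 9 genes were higher and 0 lower, beside 6.43% of all genes higher and 3.71% lower. All 9 were above 0, beside 46.1% of all genes. The groups did not overlap for 1 of the 9, Mcm2, beside 0.451% of all genes. The median log2 difference of Mcm2 to Mcm7 was 0.33, against -0.02 over all genes.

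The log2 fold change was 0.36 ± 0.11 for Mcm2 (SE, adjusted p = 0.314) and 0.49 ± 0.17 for Mcm5 (adjusted p = 0.354). Mcm4 had 0.30 ± 0.11 (adjusted p = 0.356), Mcm7 0.19 ± 0.07 (adjusted p = 0.371) and Mcm3 0.38 ± 0.15 (adjusted p = 0.403). Mcm4 ran from 32.5 to 46.9 CPM (median 36.6) in aged OVX and from 26.1 to 37.2 (28.7) in young OVX animals. Mcm7 ran from 48.3 to 56.4 CPM (49.9) in aged OVX and from 38.2 to 49.8 (45.3) in young OVX. Mcm3 ran from 23.2 to 35.02 CPM (29.6) in aged OVX and from 17.3 to 26.7 (23.4) in young OVX, and Mcm6 from 31.4 to 38.3 (36.6) in aged OVX and 20.3 to 38.8 (27.6) in young OVX. The ranges of aged OVX and young OVX animals overlapped for each of Mcm3, Mcm4, Mcm6 and Mcm7. In sham animals, Mcm3 ran from 22.2 to 30.6 CPM (24.5) in aged and from 13.0 to 29.7 (21.7) in young, and Mcm4 from 31.01 to 39.0 (33.7) in aged and from 24.4 to 35.2 (29.8) in young posterior eyes. Mcm6 ran from 27.9 to 37.95 CPM (32.8) in aged sham and from 21.0 to 37.4 (29.2) in young sham, and Mcm7 from 42.4 to 51.8 (46.1) in aged sham and from 40.1 to 48.0 (43.7) in young sham. The sham groups of both ages overlapped for these 4 subunits.

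Ccnd1 ran from 316 to 498 CPM (median 391) in aged OVX and from 205 to 418 (295) in young OVX, a log2 fold change of 0.39 ± 0.18 (adjusted p = 0.463). Mki67 ran from 18.8 to 23.4 CPM (22.1) in aged OVX and from 12.0 to 22.2 (14.0) in young OVX, 0.46 ± 0.22 (adjusted p = 0.476). Cdkn1a overlapped widely, at 26.4 to 50.8 CPM (36.7) in aged OVX and 26.3 to 44.3 (28.6) in young OVX. The count of 7 was 3 without young OVX animal 10, 4 without aged OVX animal 23 and 4 with total count scaling.

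**Figure D2:**
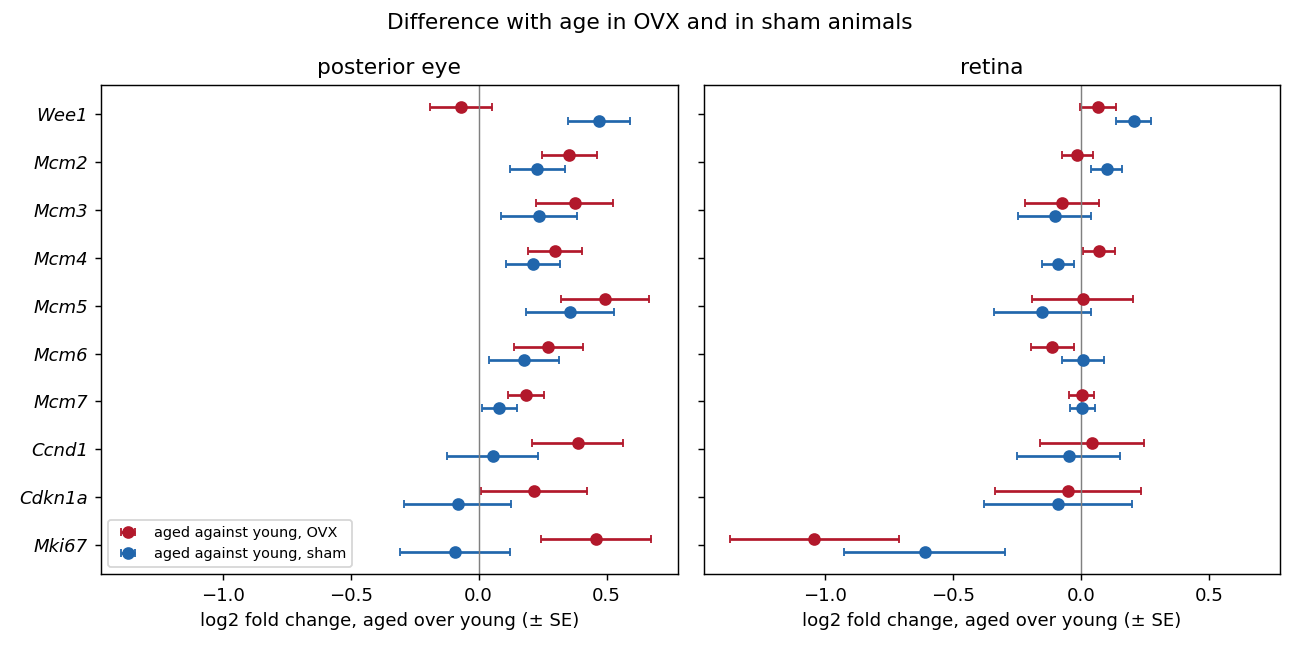
Log2 fold change of aged over young animals (horizontal axis, points with SE bars) for each gene in OVX animals (red) and sham animals (blue), posterior eye on the left and retina on the right. In the posterior eye, 9 of 10 genes lie above 0 in OVX animals, and in the retina Mki67 lies lowest, at -1.04 in OVX and -0.61 in sham animals.

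Most other replication and division genes of the same comparison lay on the same side without passing the test. Of all genes, 46.1% were above 0, and 6.43% were higher and 3.71% lower at an unadjusted p under 0.05. Of 35 genes of the replication fork and nucleotide supply, 30 were above 0, 12 were higher and 0 lower at an unadjusted p under 0.05, and 0 were called. Rpa3, a subunit of the single-strand binding protein RPA, was at 19.9 ± 2.0 CPM in aged OVX and 14.5 ± 2.1 in young OVX (SD, n = 6; log2 0.46 ± 0.11, adjusted p = 0.257), and Prim1, the primase subunit, at 0.38 ± 0.12 (adjusted p = 0.327). Of 23 genes of origin licensing, 17 were above 0, with Gins1, a part of the active helicase, at 0.67 ± 0.20 (adjusted p = 0.308) and Cdt1, the MCM loading factor, at 0.45 ± 0.15 (adjusted p = 0.336). Of 31 genes of mitosis, 30 were above 0 with a median of 0.44, 11 were higher at an unadjusted p under 0.05 and 0 were called. Kif23, a kinesin of cytokinesis, was at 27.4 ± 3.8 CPM in aged OVX and 16.4 ± 3.3 in young OVX (0.74 ± 0.21, adjusted p = 0.304). Of 11 cyclin and CDK genes, 7 were above 0 and 4 below, with 0 higher and 1 lower at an unadjusted p under 0.05. The cyclin D2 gene Ccnd2 lay below, at 85.9 ± 18 CPM in aged OVX and 123 ± 23 in young OVX (-0.51 ± 0.14, adjusted p = 0.289).

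None of the genes in the lists around Wee1, Cdkn1a and p53, or of the clock list, was called in aged against young OVX posterior eyes. Of 12 partners of WEE1 and checkpoint genes, 9 lay above 0, and 1 was higher at an unadjusted p under 0.05, the phosphatase gene Cdc25c (0.37 ± 0.16, adjusted p = 0.442). Of 16 genes of CDK inhibitors and the RB and E2F families, 11 lay above 0, and 4 were higher at an unadjusted p under 0.05, among them Cdkn2c (0.46 ± 0.17, adjusted p = 0.367). Of 17 genes of p53 and its targets, 11 lay above 0, with Perp, a desmosome gene of epithelia, at 0.61 ± 0.21 (adjusted p = 0.35). Of 18 circadian clock genes, 15 lay below 0 and 5 were lower at an unadjusted p under 0.05, with the clock output gene Dbp at -0.34 ± 0.12 (adjusted p = 0.356). The hour of dissection is not given in the sources used here.

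Across posterior eye libraries, markers of stratified surface epithelium moved with the MCM genes, Ccnd1 and Mki67. The 10 markers tested, of which none was at 0 in every library, summed to 28117 to 45368 CPM (median 34030) in aged OVX, 22948 to 37610 (26531) in aged sham, 16306 to 30920 (20541) in young OVX and 13961 to 35902 (26463) in young sham posterior eyes. The marker median was lower in young OVX than in young sham. The median of the MCM mean was not lower there (log2 CPM 4.97 against 4.92). Across the 24 libraries the mean log2 level of Mcm2 to Mcm7 followed the mean log2 level of these markers with Pearson's r = 0.788 and Spearman's rho = 0.735, r = 0.873 after group means were taken off, and r = 0.696 without the 2 libraries farthest from the median. The libraries share tissue mix, depth and handling. Mcm5 had r = 0.829, Ccnd1 0.806 and Mki67 0.754, while Wee1 had 0.150 and Cdkn1a 0.253. The retina gave r = -0.212 for the MCM mean. There 7 of the markers passed the filter and summed to 187 to 313 CPM. Group means of their mean log2 CPM were 1.94 to 3.18, so few of the 7 carried most of that sum. The marker list includes Pax6, and the retinal sum is not a measure of surface epithelium. The 2 tissues are therefore not a like comparison.

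**Figure D3:**
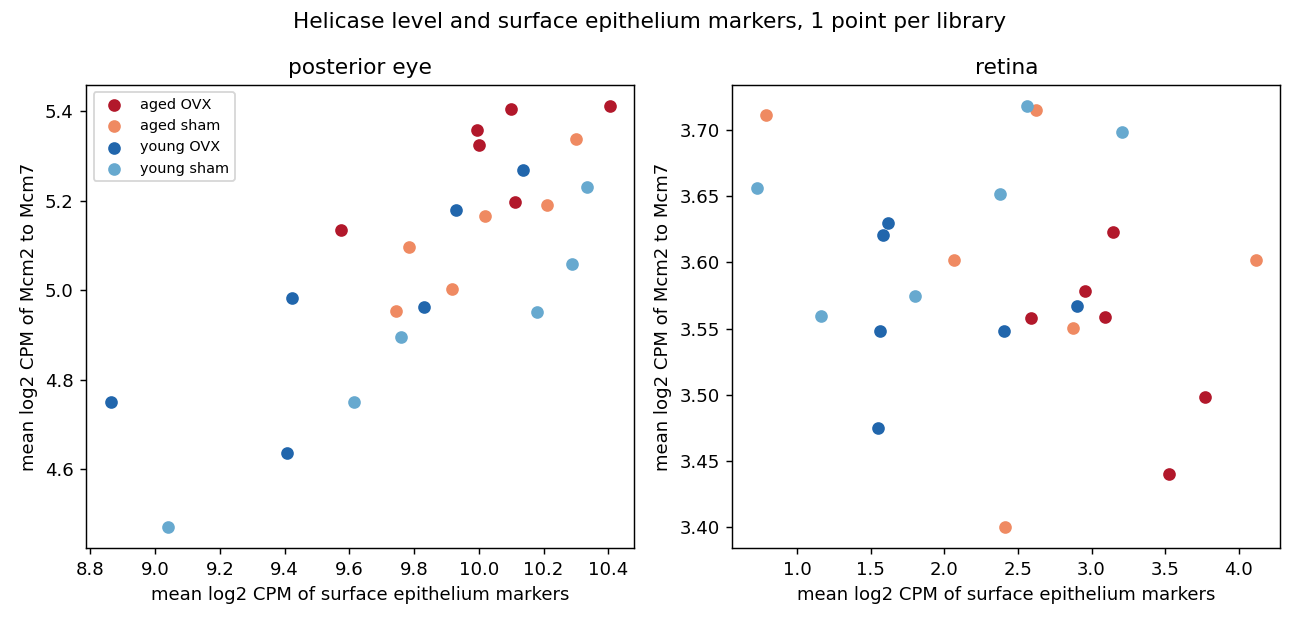
Mean log2 CPM of Mcm2 to Mcm7 (vertical axis) against mean log2 CPM of the surface epithelium markers (horizontal axis), 1 point per library, coloured by group, with different axis ranges for posterior eye (left) and retina (right). The points run upward in the posterior eye (r = 0.788, n = 24) and show no such line in the retina (r = -0.212, n = 24). In the retina 7 markers passed the filter and summed to 187 to 313 CPM, with few of them carrying most of the sum. The panels are therefore not a like comparison.

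With the epithelium level as a covariate, an alternative added after seeing the data, Mcm2 and Mcm5 were the 2 genes, Wee1 left aside, that were higher at an unadjusted p under 0.05 in aged against young OVX animals, and 1198 of all 16401 genes were at an unadjusted p under 0.05 in either direction. The log2 fold change of Mcm2 was then 0.20 (adjusted p = 0.617), of Mcm5 0.20 (adjusted p = 0.638), of Mcm3 0.13, of Mcm4 0.15, of Mcm7 0.10, of Ccnd1 0.11 and of Mki67 0.17, and the MCM median was 0.14. Rod genes lay the other way, with r = -0.527 for the MCM mean. The 2 posterior eye libraries with the most rod RNA, young OVX animal 10 (31687 CPM) and young sham animal 1 (29715 CPM), were also the lowest of their groups for 7 and 8 of the 10 genes. They also had the least surface epithelium marker RNA of their groups (16306 and 13961 CPM). Their mean Spearman correlations with the other posterior eye libraries were the lowest of that tissue (0.947 and 0.946). Animal 1 also had the fewest counts of that tissue, 11470945.

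Among themselves the genes fell into a tight set and 2 that stood outside it. The 15 pairs among Mcm2 to Mcm7 had r between 0.676 and 0.932 across the 24 posterior eye libraries (median 0.854), and between 0.482 and 0.903 with group means taken off. Ccnd1 had r of 0.717 to 0.881 with the 6 subunits and Mki67 0.515 to 0.790. Wee1 had 0.335 to 0.589 and Cdkn1a -0.03 to 0.403. In the retina the 15 pairs of subunits had r from -0.403 to 0.327 (median -0.03).

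**Figure D4:**
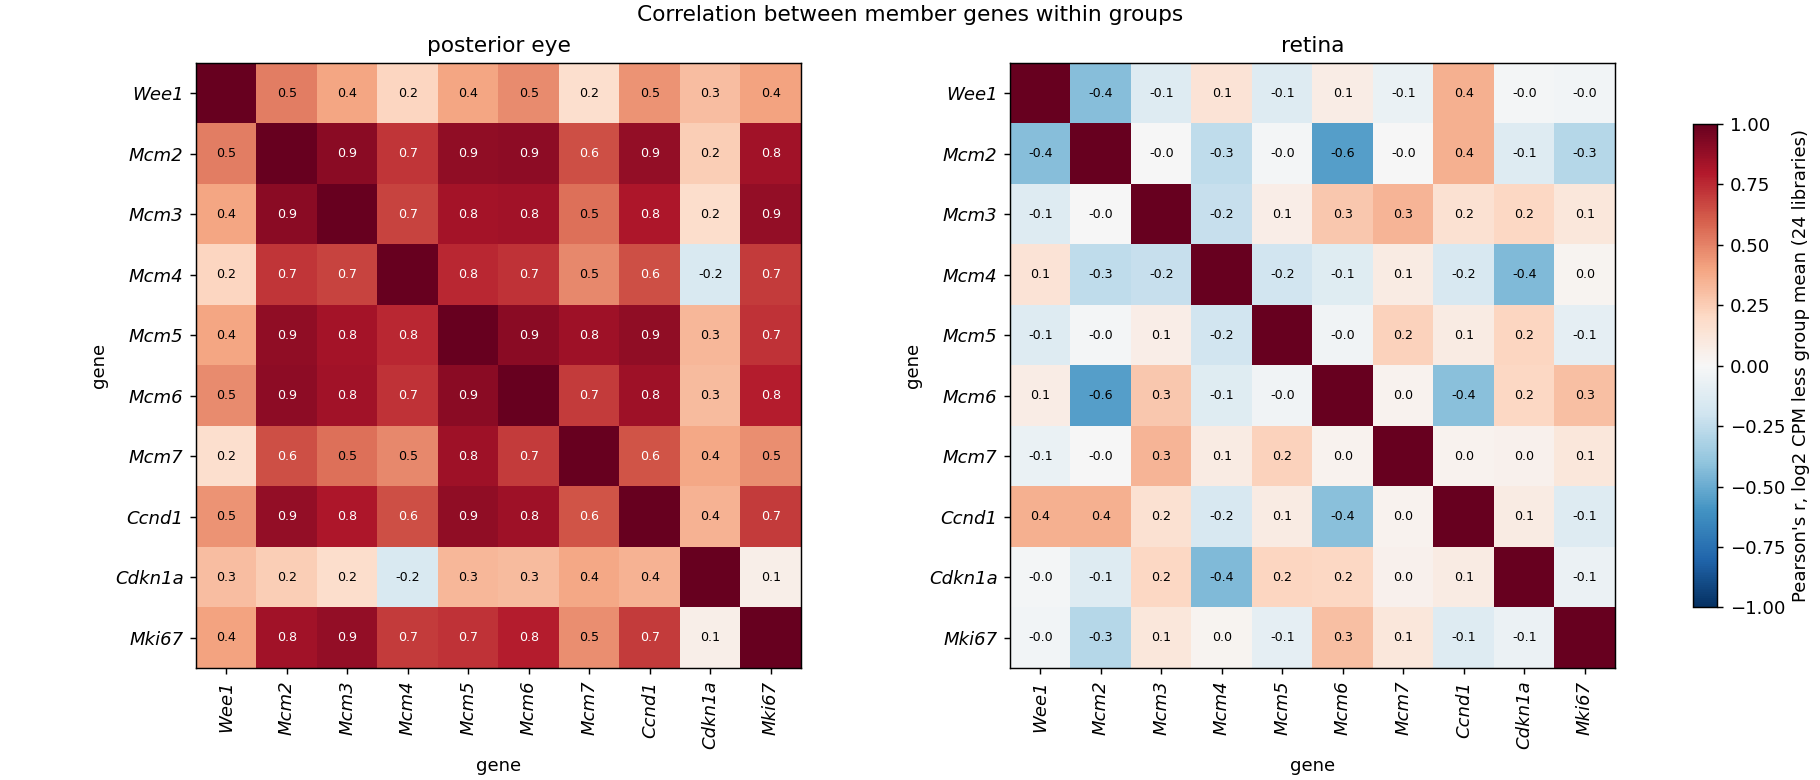
Pearson's r between each pair of genes (rows and columns) over 24 libraries, from log2 CPM with group means taken off, posterior eye on the left and retina on the right, with red positive and blue negative. The block of Mcm2 to Mcm7, Ccnd1 and Mki67 is red in the posterior eye, where the 15 subunit pairs run from 0.482 to 0.903, and mixed in sign in the retina.

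Genes among the most like each of them in the posterior eye, by r with group means taken off over 24 libraries, differed in kind. For the MCM mean they were Cyfip1 (0.922), Slc28a3 (0.914), Atad2 (0.912) and Jup (0.911), which encodes plakoglobin of cell junctions. For Mki67 they were Tpx2 (0.939), a spindle assembly factor, Ccnb1 (0.933), cyclin B1, Chl1 (0.931), Cdh1 (0.926), E-cadherin of epithelia, and Ccna2 (0.923), cyclin A2. For Ccnd1 they were Sytl1 (0.959), Wnt4 (0.958), Phldb3 (0.955), Dera (0.954) and Tbc1d10a (0.953). For Cdkn1a they were Rcl1 (0.832), Rpl19 (0.764), a ribosomal protein gene, and Psma7 (0.764), a proteasome subunit gene. For Wee1 they were Mtmr11 (0.851), Tsc22d3 (0.830), a glucocorticoid-induced gene, Acss3 (0.800), Adamts9 (0.771) and Hyal2 (0.768).

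Age was also compared in sham animals (aged sham against young sham) in the posterior eye. No gene was called (0 of 16401 in edgeR, 481 at an unadjusted p under 0.05; DESeq2 called 5 genes and limma-voom 0). Wee1 left aside, Mcm2 to Mcm7 and Ccnd1 were above 0, and Cdkn1a and Mki67 below, beside 44.1% of all genes above 0. Mcm2 was the 1 gene higher at an unadjusted p under 0.05, Wee1 left aside, beside 1.71% of all genes. Its log2 fold change was 0.23 ± 0.11 (SE, adjusted p = 1.00), which was 0.17 without young sham animal 1. The MCM median was 0.22. The age difference in OVX animals less that in sham animals lay between 0.08 and 0.55 for the 9 genes other than Wee1, and is given with no test. Ccnd1 ran from 265 to 394 CPM (median 302) in aged sham and from 209.5 to 408 (322) in young sham animals, and Mki67 from 15.0 to 26.3 (18.0) in aged sham and from 8.99 to 32.5 (20.6) in young sham. Cdkn1a ran from 21.0 to 57.4 CPM (28.4) in aged sham and from 29.4 to 43.9 (35.1) in young sham animals. Whether the age difference in sham animals differed between posterior eye and retina was tested in the fit over both tissues, and 0 genes were called (540 at an unadjusted p under 0.05). The 9 genes other than Wee1 lay above 0 there, as did 7400 of all 17153, and Mcm4 was at 0.30 ± 0.13 (SE, unadjusted p = 0.0258, adjusted p = 1.00).

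OVX was compared with sham in aged animals. In the posterior eye 10 of 10 genes were above 0, beside 51% of all genes, and none was called (0 of 16401 in edgeR, 422 at an unadjusted p under 0.05; DESeq2 and limma-voom called 0). The log2 fold change of Mcm2 was 0.25 ± 0.11 (adjusted p = 1.00), and 6 of 6 aged OVX libraries lay above the aged sham median. It was the 1 gene of the 10 higher at an unadjusted p under 0.05, beside 1.56% of all genes. This comparison and the 2 age comparisons share the aged groups. Wee1 ran from 49.2 to 55.4 CPM (median 51.8) in aged OVX and from 42.0 to 58.6 (49.8) in aged sham animals, and did not pass the test (0.08 ± 0.12, adjusted p = 1.00).

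Wee1 came to attention through the young posterior eye, so its values there are given as a description with no test, and so are those of the other genes in that comparison. Wee1 ran from 40.4 to 63.1 CPM (median 58.8) in young OVX and from 23.4 to 42.9 (36.5) in young sham animals, a log2 fold change of 0.62 ± 0.12. The ranges overlapped, with 6 of 6 young OVX libraries above the young sham median. In aged sham animals Wee1 lay 0.47 ± 0.12 above young sham, and in aged OVX animals 0.07 below young OVX (-0.07 ± 0.12), so young sham was the low group of the 4. The difference between the OVX effects at the 2 ages was -0.54 ± 0.17. In young OVX against young sham, Wee1 left aside, the 6 MCM genes lay above 0 and 3 genes below, beside 47.2% of all genes above 0. The MCM genes lay between 0.01 and 0.12, Ccnd1 at -0.02, Cdkn1a at -0.09 and Mki67 at -0.39. All 31 mitosis genes of the list lay below 0 there, with a median of -0.29. The young OVX libraries are those against which the aged OVX libraries were set above, so the 2 comparisons are not independent.

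In the retina, the spread over libraries differed among the genes. The coefficient of variation over all 24 libraries was 5.24% for Mcm7, 6.95% for Mcm2 and 9.47% for Wee1, and 26.3% for Ccnd1, 36.9% for Cdkn1a and 45.3% for Mki67. Mcm7 ran from 39.2 to 47.4 CPM over all 24 libraries, a 1.21-fold range, and Mcm2 from 18.8 to 26.2 CPM. Counts of Mki67 were 5 to 67 per library, those of Mcm5 25 to 72 and those of Cdkn1a 30 to 129, so differences in these 3 genes were estimated with little precision. Mcm4 ran from 27.6 to 37.5 CPM (median 30.6) in aged OVX, 27.9 to 32.1 (29.6) in aged sham, 25.8 to 31.8 (30.5) in young OVX and 30.0 to 33.8 (31.5) in young sham retinas. Mcm6 ran from 7.91 to 11.1 CPM (8.85) in aged OVX, 9.85 to 10.8 (10.4) in aged sham, 9.08 to 11.1 (9.90) in young OVX and 8.73 to 11.6 (10.3) in young sham retinas. The 4 groups overlapped for both subunits. Mcm2 ran from 20.5 to 25.5 CPM (22.1) in aged OVX, 21.8 to 24.5 (23.4) in aged sham, 18.8 to 26.2 (22.6) in young OVX and 21.4 to 22.5 (21.6) in young sham retinas. Mcm3 ran from 2.51 to 4.68 CPM (3.51) in aged OVX, 2.97 to 4.56 (3.86) in aged sham, 3.27 to 4.25 (4.15) in young OVX and 2.78 to 4.59 (4.31) in young sham retinas. Mcm5 ran from 1.94 to 2.41 CPM (2.30) in aged OVX, 1.07 to 3.52 (2.69) in aged sham, 1.79 to 2.88 (2.10) in young OVX and 2.37 to 3.27 (2.92) in young sham retinas. The 4 groups overlapped for these 3 subunits as well. None of the 10 genes was called in any of the 5 contrasts (edgeR), beside 0.0194% of all 15481 genes for OVX in young animals, 0.00646% for OVX in aged animals, 0.0388% for age in sham, 0.0711% for age in OVX animals and 0.0452% for the interaction of OVX and age. In the OVX comparisons none of the 10 reached an unadjusted p under 0.05, beside 6.09% of all genes higher and 5.58% lower in young animals and 3.21% higher and 3.26% lower in aged animals.

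Wee1 was the 1 gene of the 10 whose groups did not overlap with age in sham retinas, beside 0.336% of all genes, and the 1 higher at an unadjusted p under 0.05, beside 5.72%. It ran from 20.8 to 23.3 CPM (median 22.0) in aged sham and from 18.1 to 19.8 (19.2) in young sham animals, a log2 fold change of 0.20 ± 0.07 (adjusted p = 0.274). In OVX animals its ranges overlapped, at 17.7 to 25.1 CPM (20.3) in aged OVX and 16.2 to 21.6 (19.8) in young OVX. Mki67 ran from 0.335 to 1.99 CPM (0.976) in aged OVX and from 1.19 to 2.81 (2.18) in young OVX retinas, a log2 fold change of -1.04 ± 0.33 (adjusted p = 0.289), beside 4.22% of all genes lower at an unadjusted p under 0.05. In sham retinas it ran from 0.607 to 2.13 CPM (1.34) in aged and from 1.52 to 2.98 (1.98) in young animals (-0.61 ± 0.31). Of 26 mitosis genes tested in the retina, 19 lay below 0 in aged against young OVX animals, as did 7686 of all 15481 genes. In aged against young sham animals 16 lay below 0, as did 7779 of all genes. The medians were -0.13 and -0.19, and none was called. At an unadjusted p under 0.05, 1 was lower and 1 higher in OVX animals, and 4 were lower and 0 higher in sham animals.

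**Figure D5:**
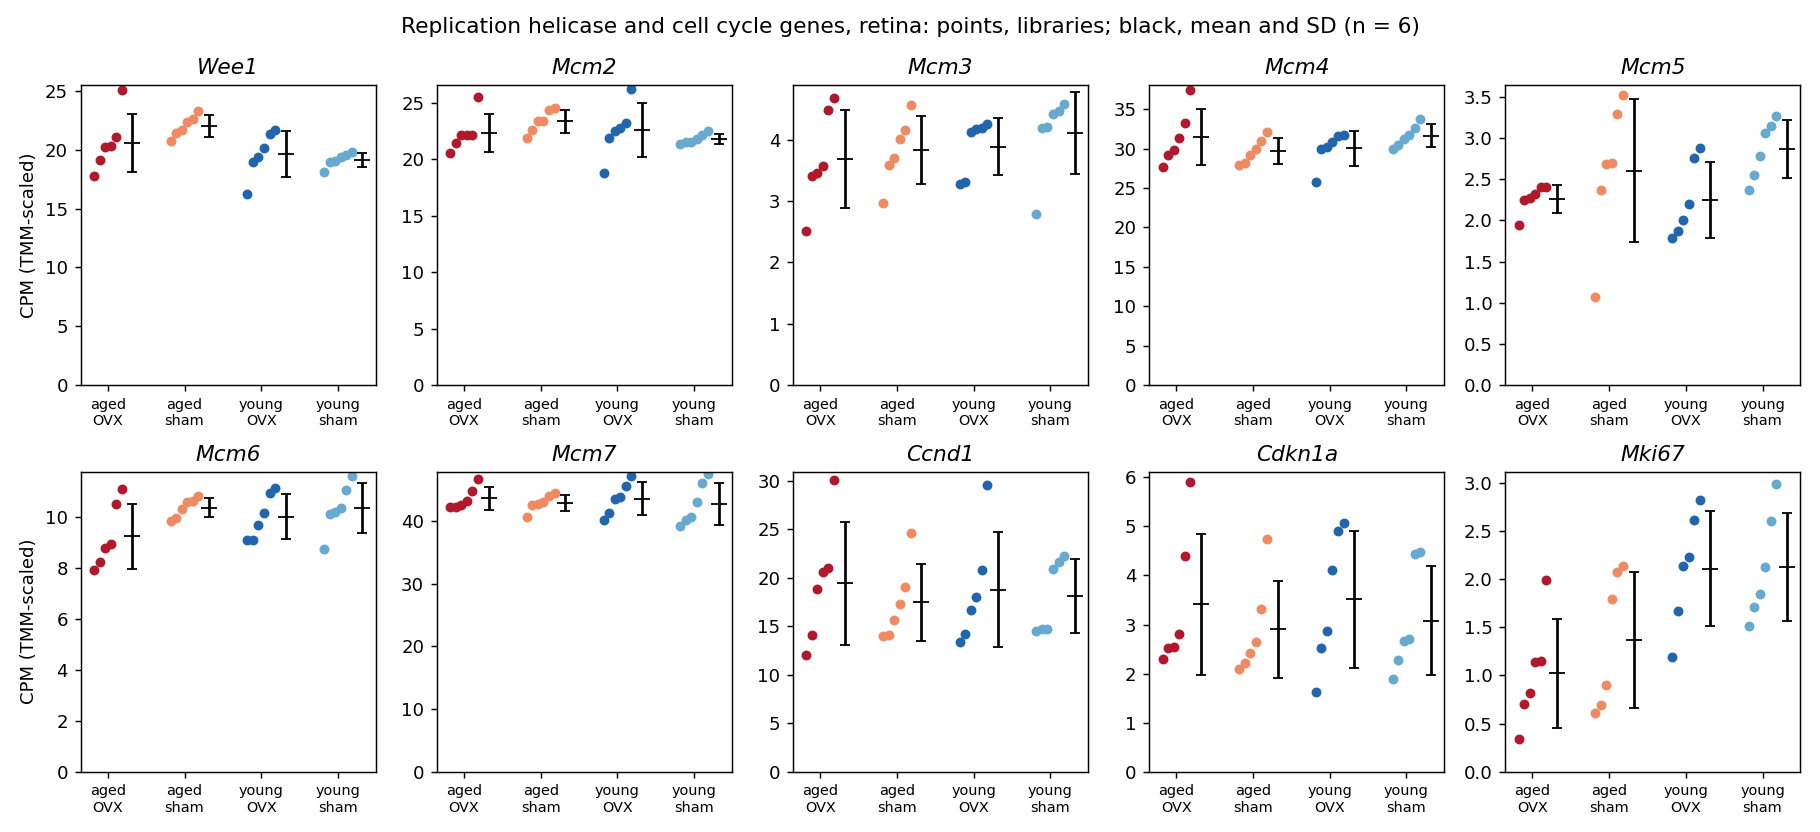
Level of each gene in the retina (vertical axes, TMM-scaled CPM, starting at 0) by group, with 1 point per library and the mean and SD in black (n = 6). Aged sham Wee1 libraries (20.8 to 23.3 CPM) sit above the young sham libraries (18.1 to 19.8 CPM), and the 6 aged OVX libraries of Mki67 lie between 0.335 and 1.99 CPM.

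Ccnd1 varied most between retina libraries of a group among the genes above 10 CPM, from 12.0 to 30.0 CPM (median 19.7) in aged OVX, 14.0 to 24.6 (16.5) in aged sham, 13.4 to 29.6 (17.4) in young OVX and 14.5 to 22.2 (17.8) in young sham animals. Its most similar genes there were Scarf2 (r = 0.913), Mxra8 (0.892), Rab11fip1 (0.889), Galm (0.879) and Serping1 (0.877), again with group means taken off over 24 libraries. Cdkn1a ran from 2.30 to 5.90 CPM (2.68) in aged OVX, 2.09 to 4.74 (2.52) in aged sham, 1.62 to 5.06 (3.48) in young OVX and 1.90 to 4.48 (2.69) in young sham retinas, and these ranges overlapped throughout.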

How the data were processed

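The authors deposited 1 table of raw read counts per gene for each tissue, with 24 libraries in each. Per the labels' protocols, 10 ng of total RNA was amplified with SMART-Seq v4, made into libraries by Nextera XT and read from both ends, with no strand-marking step described. The submitters' processing notes name STAR 2.7.3a, HTSeq, DESeq2 and build Rnor_6.0, without their settings. Low counts were removed with filterByExpr, which left 16401 posterior eye genes, 15481 retina genes and 17153 in the fit over both tissues. edgeR 4.0.16 (R 4.3.3) fitted 1 mean per group with TMM scaling; the quasi-likelihood F test was two-sided, adjusted over all genes by Benjamini-Hochberg and called under 0.05. The SE is the absolute log2 fold change over the square root of F. Log2 CPM used a prior count of 2. Alternatives used DESeq2 1.42.0, limma 3.58.1 (voom), other scalings, filters, covariates, replicate blocks and libraries left out. The tissue fit pairs libraries by animal, as the labels give it, in an alternative. Within a tissue, p-values measure the spread between animals. The reported fit over both tissues has no term for the animal, so its p-values treat the 2 libraries of an animal as independent.

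The 10 genes and all lists were chosen with earlier results of these data known. All 10 are described, with test values for those under an unadjusted p of 0.05, except Wee1 in some comparisons. Wee1 has no test in comparisons within the posterior eye that use a young group. It is tested between the tissues, where all 4 groups, the young ones included, are averaged. From each list up to 3 genes with the smallest p, and the 5 genes most like each gene, were named by rule, and some of these are not reported here. Scripts were tested on simulated data.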

Additional observations from a re-analysis of the deposited data

Results flagged for a closer look

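A library stood far from the other 5 of its group in 5 of 80 combinations of gene, tissue and group by Dixon's gap test. Chance flags about 1 in 20 such groups. In the posterior eye, Mcm7 was at 56.4 CPM in aged OVX animal 21, with the others between 48.3 and 50.8 CPM. In the retina, the same animal had 25.5 CPM of Mcm2, with the others between 20.5 and 22.1, and 1.94 CPM of Mcm5, with the others between 2.25 and 2.41. Young sham animal 1 had 2.78 CPM of Mcm3 in the retina, with the others between 4.20 and 4.59, and young OVX animal 7 had 25.8 CPM of Mcm4, with the others between 29.98 and 31.8.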

How the results depend on the processing

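No fold change that was followed changed direction under any alternative tried. Those followed were the 10 between tissues and, within a tissue, those at an unadjusted p under 0.05 in the reported fit. The other fold changes of the 10 genes were not followed singly. The 10 genes stayed higher in the posterior eye than in the retina with RLE scaling, with the animal as replicate block and with limma-voom (10 called in each), and none of the 10 was called under any alternative in the tested comparisons within a tissue. Wee1 in young OVX against young sham posterior eyes, the comparison it was chosen by, is given without a test. Its log2 fold change there lay between 0.53 and 0.70 with 1 library left out. The count of genes higher at an unadjusted p under 0.05 with age in OVX posterior eyes, 7 in the reported fit, was 4 with total count scaling, 2 with the surface epithelium covariate, and 3 to 8 with 1 library left out. Genes called over the whole posterior eye table in young OVX against sham (1) became 0 with only those groups fitted, 0 with the replicate block, 0 with the sebaceous covariate, 6 with the rod covariate, 12 with DESeq2, and 1 to 2 with 1 library left out. With age in OVX animals (0) they became 1 with only those groups, 1 with the rod covariate, 1 with limma-voom and 65 with DESeq2 (0 to 0 with 1 left out), and with age in sham animals (0) 5 with DESeq2 and 0 to 1 with 1 left out. In the retina, young OVX against sham (3) gave 0 with no filter, the block or the pigment epithelium covariate, 62 with DESeq2 and 0 to 4 with 1 left out. Aged OVX against sham (1) gave 0 with the block, the pigment epithelium or lens covariate or limma-voom, 9 with DESeq2 and 0 to 1 with 1 left out. Age in sham retinas (6) gave 13 with total counts, 2 with the block, 0 with the pigment epithelium covariate, 66 with DESeq2 and 0 to 24 with 1 left out. Age in OVX retinas (11) gave 20 with the strict filter, 17 with only those groups, 2 and 7 with the pigment epithelium and lens covariates, 68 with DESeq2 and 2 to 16 with 1 left out. The retinal interaction (7) gave 0 with the pigment epithelium covariate, 22 with DESeq2 and 4 to 13 with 1 left out. The cause was not tested. The labels do not say whether replicate numbers 1 to 6 mark a shared day or litter. Same-numbered libraries correlated above 0.1 in 22 of 36 pairs in the posterior eye (median r = 0.342) and in 4 of 36 in the retina (0.02), so not in every pair. In the posterior eye r ran from -0.508 to 0.681, and differently numbered libraries were not compared. The numbers were not used for pairing outside the replicate block.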
